A study of Danio rerio
Oryzias latipes and Oryzias latipes and Danio rerio with 7 samples.

Results

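Fish transcripts that aligned to the genome of the wrong species were collected from embryos of medaka (Oryzias latipes) and zebrafish (Danio rerio). The genes were chosen by their foreign FPKM: a gene counted as cross-mapping when both libraries of the foreign species gave it at least 1 FPKM (fragments scaled by transcript length and by library size, the deposited unit). By this rule, 330 of the 32264 gene IDs of the zebrafish genome held signal from both medaka libraries, which is 1.02%. Of the 20459 gene IDs of the medaka genome, 399 held signal from both zebrafish libraries, which is 1.95%. These genes are called members here. Since foreign FPKM chose the members, their foreign values, and those values set against the native species, are given as a description with no test.

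The study compared 3 kinds of whole embryo, all raised at 28 °C and labelled only as embryos, with no stage in hours or days. Medaka of strain Cab gave 2 libraries and was raised in ERM (the labels' name for the medium), and zebrafish of strain AB gave 2 libraries and was raised in E3 medium. Zebraka chimeras, labelled Cab/AB, gave 3 libraries. In these, zebrafish blastomeres had been transplanted into medaka blastulae of equal age, and the embryos grew in ERM, so every chimera library holds RNA of both species. Trizol served for extraction, and libraries were made from poly(A) RNA. Each library was aligned to both genomes, which makes 14 tables from 7 libraries. The labels do not say whether the libraries within a group are from separate clutches, so p-values reflect how far these particular samples vary, and that variation may be technical.

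Zebrafish and medaka are both teleost fish whose lines parted long ago, and most of their coding sequence has drifted too far for a short read of one to align to the other. Reads cross most easily where selection has held long stretches of nucleotides nearly fixed. Ribosomal RNA, actins, tubulins, translation factors and some developmental regulators are textbook cases of such slow change. Reads can also align to several near-identical gene copies, and how the aligner shared them among the copies is not given in the sources used here.

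The cross-mapped signal was small, and its total share was alike in the 2 libraries of a species. Medaka libraries 1 and 2 placed 102064 and 77794 fragments on the zebrafish genome, against 21491640 and 18330408 on their own, which is 0.475% and 0.424%. Zebrafish libraries 1 and 2 placed 63818 and 81765 fragments on the medaka genome, against 21866655 and 28574227 on their own, or 0.292% and 0.286%. Fragment numbers are those implied by the confidence limits that came with each FPKM, and they are too low for genes with several isoforms. FPKM are scaled within each table, so the few foreign fragments are inflated: 1 FPKM stood for about 195 and 236 times fewer fragments in medaka 1 and 2 than in zebrafish 1 on the same genome. It stood, on the medaka genome, for 175 and 142 times fewer in zebrafish 1 and 2 than in medaka 1. A foreign FPKM above a native FPKM therefore does not mean more fragments. For members with at least 10 fragments in each foreign library, termed well covered below, foreign fragments were also given per 100 native ones. These rates compare the means of the foreign and the native libraries and are not corrected for library size. They also depend on the level of the gene in each species, so they do not measure crossing alone. The zebrafish libraries were the larger ones, so the rates run low on the zebrafish genome and high on the medaka genome.

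Coverage of the members was uneven. Of those on the zebrafish genome, 140 of 330 rested on fewer than 3 fragments in at least 1 medaka library, 133 were well covered and 44 held 100 or more in both. Of the 399 on the medaka genome, 199 fell under 3, 129 were well covered and 44 held 100 or more. Between the foreign replicates, 262 of the 330 members of the zebrafish genome stayed within 2-fold, as did 302 of the 399 on the medaka genome. Among well-covered members, which needed 10 fragments in both libraries, all 133 and 117 of 129 did. The genes nearest the threshold rested on few fragments, from under 1 to 9.59 in a library. Of the zebrafish genome, plekhm2 (1.06 and 2.56 FPKM) and actn3a (1.08 and 5.25) lay just inside, while KLHL29 (0.960 and 11.7) and atp8b1 (0.929 and 2.26) lay just outside. Of the medaka genome, smyhc1 (1.91 and 1.04) and uba1 (1.05 and 2.56) lay just inside, and zmynd8 (0.966 and 3.15) just outside. Outside the members, 69 and 573 genes reached 1 FPKM in medaka 1 or medaka 2 alone, and 286 and 566 in zebrafish 1 or 2 alone.

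**Figure D1:**
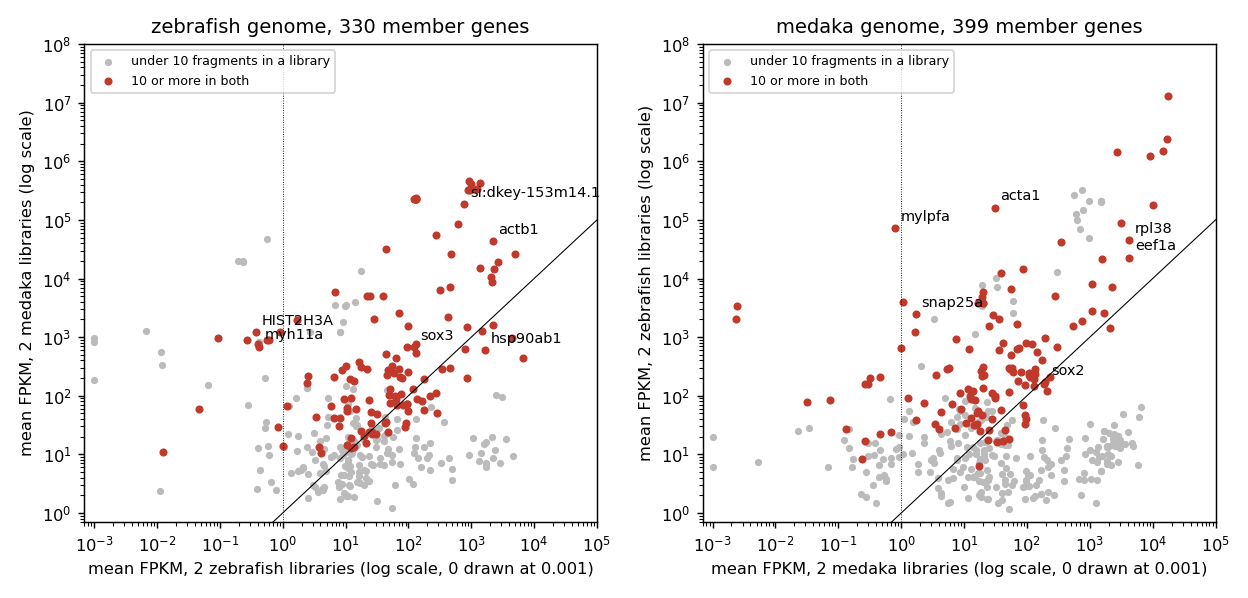
Mean FPKM of each member in the 2 foreign libraries (vertical, log scale) against the 2 native libraries (horizontal, log scale), on the zebrafish genome (left, 330 genes) and the medaka genome (right, 399 genes). Red points are the 133 and 129 well-covered members, grey points the rest, the solid line marks equal FPKM and the dotted line 1 native FPKM. Well-covered members span native levels from near 0 to over 1000 FPKM.

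A handful of records carried most of the foreign signal on the zebrafish genome, and many of them lay at or beside ribosomal RNA. Ribosomal RNA genes stand in repeated units, of which 5.8S rRNA, a short RNA of the large ribosomal subunit, is a part. The record si:dkey-153m14.1 (chr20:55338636-55339525, danRer10) alone read 202441 and 172884 FPKM in medaka 1 and 2, or 41147 and 28926 fragments. It read 889.8 and 665 FPKM in the zebrafish libraries. No role is given for it in the tables used here, and it is not among the records near 5.8S rRNA. Next came zgc:158463 (chr5:825789-827000), listed as rRNA in the RefSeq gene table, at 81900.1 and 90232 FPKM in medaka against 743 and 504 in zebrafish. Together they took 64.8% of all foreign fragments, and the 10 leading members took 77.7%.

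Of 45 records at or near a 5.8S rRNA record, 23 were members, and these held 39.8% and 39.2% of the foreign fragments of medaka 1 and 2. The class takes in records within 20000 bp of a 5.8S record and the records named zgc:158463 and wu:fi09b08. The 6 records named wu:fi09b08 on chromosomes 4 and 5 read between 253569 and 487902 FPKM in the medaka libraries and between 855 and 1751 in the zebrafish ones. They are listed as protein-coding in the RefSeq table, and each spans only 168 bp; they share a name and a length, and how reads were split among them is uncertain. At the 5.8S record chr4:53797277-53797430 on chromosome 4, medaka 1 and 2 read 185467 and 266008 FPKM and zebrafish 1 and 2 read 176 and 87.8. That is 687 medaka fragments per 100 zebrafish fragments, uncorrected for library size. The libraries were made from poly(A) RNA, and how much rRNA was left in each is not known, so rRNA levels are uncertain between species.

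The rRNA neighbourhood was also where the medaka libraries parted. There, 7 records near 5.8S copies on chromosome 4 read between 658 and 92727 FPKM in medaka 1 and between 1.08 and 193 in medaka 2. The highest was si:dkeyp-3b12.11, at 92727 and 193 FPKM. These 7 records are among 8 members of the zebrafish genome that differed over 10-fold between the medaka libraries, and none of the 7 was well covered in medaka 2.

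Mitochondrial signal came almost wholly from 1 record on each genome and hardly from the protein genes. In zebrafish coordinates the mitochondrial record AC024175.4 (chrM:2043-3725) read 1382 and 1142 FPKM in medaka and 1567 and 1383 in zebrafish. The medaka genome has an unnamed mitochondrial record (chrM:1084-2757) that read 14296 and 14496 FPKM in zebrafish libraries against 90.3 and 81.4 in medaka, 5776 and 7062 zebrafish fragments. By contrast mt-co1, which encodes subunit 1 of cytochrome oxidase, read 9.84 and 8.96 FPKM in medaka on the zebrafish genome against 4739 and 4387 in zebrafish. Medaka COX3 read 31.2 and 55.9 FPKM in the zebrafish libraries on 5.00 and 11.0 fragments, against 6247 and 6029 in medaka. Zebrafish mt-co2 and mt-atp6, at 6521 and 3439 FPKM in zebrafish 1, were listed at 0 in both medaka libraries.

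Among protein-coding members, translation factors and cytoskeletal genes were among the leaders on both genomes. Elongation factor 1 alpha, which carries aminoacyl-tRNA to the ribosome, gave the largest count on the medaka genome: eef1a (chr11:16673078-16676632) read 20988 and 24603 FPKM, or 10585 and 15278 fragments, in zebrafish 1 and 2. Its native level was 4393 and 4132 FPKM in medaka 1 and 2. The foreign fragments came to 3.67 per 100 native ones. On the zebrafish genome eef1a1l1 (chr19:43523334-43539373) read 25374 and 26106 FPKM in medaka and 5091 and 4925 in zebrafish, which is 1.98 per 100. It was the only member among 15 annotated elongation factor records there, whereas 5 of 13 were members on the medaka genome, with eef1a1l1, EEF2, eef1g and eef1b2.

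Actins, the monomers of the thin filament and the cell cortex, crossed as a family. Members were 5 of 8 annotated actins on the zebrafish genome and all 6 on the medaka genome. The cytoplasmic actin actb1 (chr1:7964988-7968621) read 41902 and 45104 FPKM in medaka and 2188 and 2235 in zebrafish. actb2 read 18372 and 19165 against 2663 and 2623. The foreign fragments were 7.52 and 2.73 per 100. Its medaka-genome counterpart actb read 80331 and 96947 FPKM in zebrafish against 3206 and 3064 in medaka, or 19.5 per 100. Actin paralogs are alike enough that reads may have been split among them, so values of single actins are uncertain.

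Tubulins, the subunits of microtubules, followed. Members were 7 of 10 alpha and 3 of 6 beta tubulins on the zebrafish genome, and 4 of 8 and 5 of 7 on the medaka genome. The best covered were tubb4b (1477 and 1482 FPKM in medaka, 883 and 822 in zebrafish) on the zebrafish genome and tubb2b (2546 and 3137 in zebrafish, 1124 and 1055 in medaka) on the medaka genome. Per 100 native fragments these gave 0.671 and 1.80.

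Ribosomal proteins split sharply within the family. Of the zebrafish genome's 89 cytosolic ribosomal protein genes, 12 were members and 4 were well covered; on the medaka genome the numbers were 37 of 78 and again 4. Among the well-covered ones on both genomes were rpl38, rpsa and rpl8. rpl38, a small protein of the large subunit, read 14037 and 15997 FPKM in medaka against 1504 and 1228 in zebrafish on the zebrafish genome. rpsa, of the small subunit, read 14388 and 14584 against 2452 and 2154. Medaka-genome rpl38 read 44619.8 and 46723 FPKM in zebrafish and 4057 and 4293 in medaka, or 7.50 per 100. Level in the source species did not separate the members: the median source FPKM was 2159 for the 11 member and 2321 for the 59 other ribosomal protein symbols that have a single record on each genome, read in medaka. For signal from zebrafish the medians were 2209 for 35 members and 1972 for 35 others. rpl35a and rpl30 held no foreign fragment on either genome although their source levels were 3407 and 2316 FPKM in medaka and 2625 and 1981 in zebrafish.

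**Figure D2:**
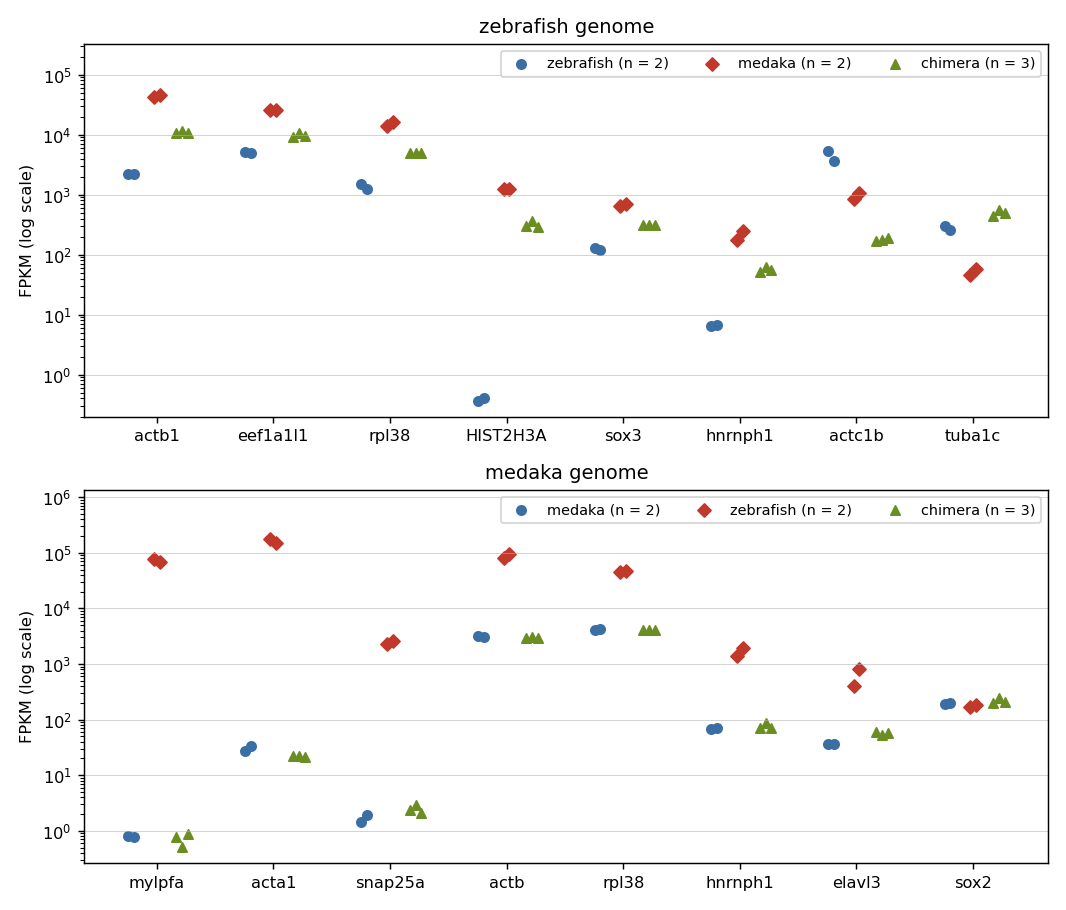
FPKM of 8 members on each genome in every library (log scale): native species (blue circles, n = 2), foreign species (red diamonds, n = 2) and chimeras (green triangles, n = 3). On the zebrafish genome the chimeras lie between the zebrafish and medaka libraries for actb1, eef1a1l1, rpl38, HIST2H3A, sox3 and hnrnph1. On the medaka genome they lie near the medaka libraries for all 8 genes, though above both of them for elavl3 and snap25a and below both for acta1.

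Members also included regulators of splicing and RNA processing. hnrnph1, an RNA-binding splicing regulator, read 175 and 250.0 FPKM in medaka and 6.40 and 6.71 in zebrafish on the zebrafish genome. Its medaka-genome record read 1396 and 1900.0 in zebrafish and 67.6 and 69.9 in medaka. Its foreign fragments were 12.2 and 16.6 per 100 native ones, several times the medians of 2.11 and 5.90 over all well-covered members. On their own genomes hnrnph1 was far lower in zebrafish than in medaka, so the 12.2 rests on a low native level. Whether reads of other genes add to the 16.6 on the medaka genome was not tested. The related gene hnrnph1l read 728 and 799.8 against 133 and 135. wtap, a subunit of the m6A methyltransferase complex, was well covered on both genomes, at 2.62 and 13.4 per 100. Members of the hnRNP and SR list were 6 of 45 and 3 of 32.

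The transcription factor lists gave few members each, but their shares differed. On the zebrafish and medaka genome, zic (42.9% and 33.3%), sox (10.3% and 10.5%) and pou genes (11.8% and 18.8%) lay above the share over all gene IDs. That share was 1.02% and 1.95%. Numbered zinc finger genes, at 1 of 350 and 0 of 81, lay below it. Zic genes, zinc finger factors of the neural plate, gave 3 of 7 on the zebrafish genome and 2 of 6 on the medaka genome. zic5 read 61.1 and 60.7 FPKM in medaka and 9.99 and 10.8 in zebrafish on the former, and 77.2 and 119 in zebrafish and 11.9 and 13.1 in medaka on the latter. zic4 was a member on both genomes. Among sox genes, sox3 (654 and 706 in medaka against 127 and 121 in zebrafish, 2.11 per 100), sox11a and sox5 were members on the zebrafish genome, and sox2 (165 and 181 in zebrafish against 190.5 and 202 in medaka, 0.608 per 100) and sox5 on the medaka genome. Hox genes gave 2 of 50 (4%) and 2 of 32 (6.25%), also above the share over all gene IDs. All were of the fourth paralogy group: hoxc4a and hoxd4a, and hoxc4 and hoxd4a. Both were well covered on the zebrafish genome but neither on the medaka genome. There the whole hox list held 4.99 and 4.00 fragments in zebrafish 1 and 2. Pou genes gave 2 of 17 and 3 of 16, and proneural and hairy bHLH genes 1 of 39 and 1 of 23. Well covered were 0 and 1 of the pou members and none of the bHLH members. On the zebrafish genome the whole pou list held 6.32 and 3.42 fragments in medaka 1 and 2.

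Other developmental regulators also crossed, and all of these but meis2a were chosen after their values were seen. meis2a, a cofactor of hox proteins, read 499.8 and 552 FPKM in medaka and 42.0 and 45.5 in zebrafish, and on the medaka genome 221 and 355 in zebrafish and 53.2 and 54.8 in medaka. Also well covered on both genomes were zfhx4, nr2f2, pitx1, irx5a and yap1. The per-100 rates of nr2f2 were 2.28 on the zebrafish genome and 3.83 on the medaka genome.

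Housekeeping genes outside these groups reached the same depth. slc25a5, the mitochondrial ADP/ATP carrier, read 11216 and 10399.5 FPKM in medaka and 2168 and 2013 in zebrafish, and its medaka-genome record SLC25A5 read 7261 and 8599 in zebrafish and 1098 and 1043 in medaka. amd1, which makes the precursor of spermidine, gave 2.24 and 1.65 per 100, and kpnb1, an importin of the nuclear pore route, gave 1.09 and 1.27. ap2m1a, of the clathrin adaptor, gave 6.08 and 1.01. The translation initiation factors eif1b (6341 and 6646 FPKM in medaka, 331 and 315 in zebrafish) and eif4a3 were well covered on the zebrafish genome.

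Across symbols, 125 were members on both genomes. They are 42.4% of the 295 member symbols of the zebrafish genome and 39.3% of the 318 of the medaka genome. Counting only member symbols that are annotated on both genomes, the shares are 63.1% of 198 and 45.0% of 278. At least 10 fragments in all 4 foreign tables were found for 44 symbols, among them eef1a1l1, slc25a5, rpl38, rpsa, 5.8S rRNA, rpl8, kpnb1, meis2a and amd1.

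Level in the source species went with membership. Over 11553 symbols with a single record on each genome, 0.537% of those under 1 FPKM in medaka were members on the zebrafish genome, and 13.6% (12 of 88) of those at 1000 FPKM or more. For zebrafish transcripts on the medaka genome the shares were 0.627% and 51.6% (48 of 93). Most of these members rested on few fragments. At 1000 FPKM or more, 4 of the 12 and 10 of the 48 members were well covered. Under 1 FPKM it was 1 of 13 and 0 of 14. Abundance was not enough: 26 of the 88 most abundant medaka symbols and 16 of the 93 zebrafish ones gave no foreign fragment. Among them were krt5, a keratin of the epidermis, at 5868 FPKM in medaka, and rplp1, an acidic protein of the ribosomal stalk, at 3402 FPKM in zebrafish.

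**Figure D3:**
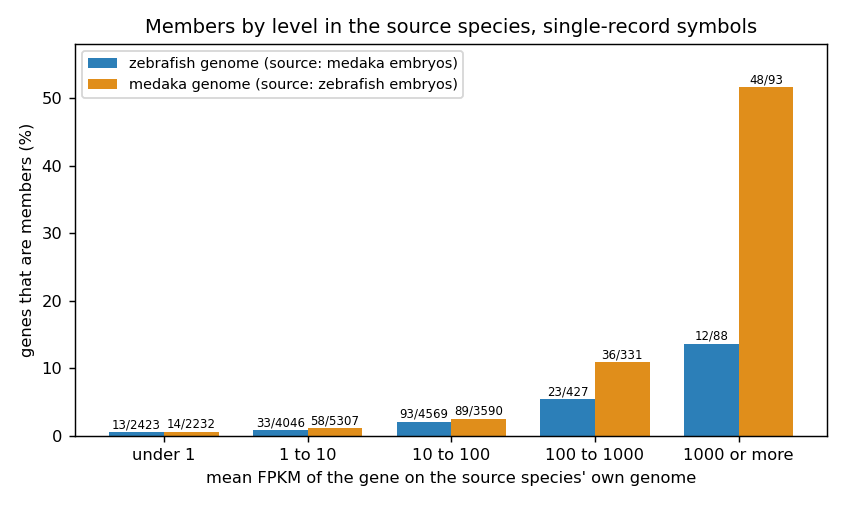
Share of symbols that were members (vertical, percent) by their mean FPKM on the source species' own genome (horizontal), for the zebrafish genome (blue, source medaka) and the medaka genome (orange, source zebrafish), with members over symbols above each bar. The share rises from 13 of 2423 to 12 of 88 and from 14 of 2232 to 48 of 93. Of the 12 and 48 members in the highest group, 4 and 10 were well covered.

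Members were 1.02% of all gene IDs on the zebrafish genome and 1.95% on the medaka genome, so a count of 0 in a short list lies near the share over all genes. No glycolytic enzyme was a member (0 of 37 and 0 of 32), no 14-3-3 protein (0 of 11 and 0 of 6), no calmodulin, claudin, chemokine or microRNA, and of the proteasome subunits 0 of 56 and 1 of 49 (PSMD2). Summed source levels of the glycolytic list were 3748 and 3568 FPKM in the medaka libraries. Keratins gave 1 of 24 on the zebrafish genome and 6 of 11 on the medaka genome, and none of these was well covered: medaka krt4 read 11.5 and 4.70 FPKM in zebrafish on 4.00 and 1.99 fragments. Collagens gave 2 of 59 and 2 of 48, all of type I, and both lists lay above the share over all genes. The lens crystallin crybb1 was well covered on both genomes, at 274 and 299 FPKM in medaka against 403 and 274 in zebrafish, and 2307 and 1714 in zebrafish against 31.9 and 38.8 in medaka.

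**Figure D4:**
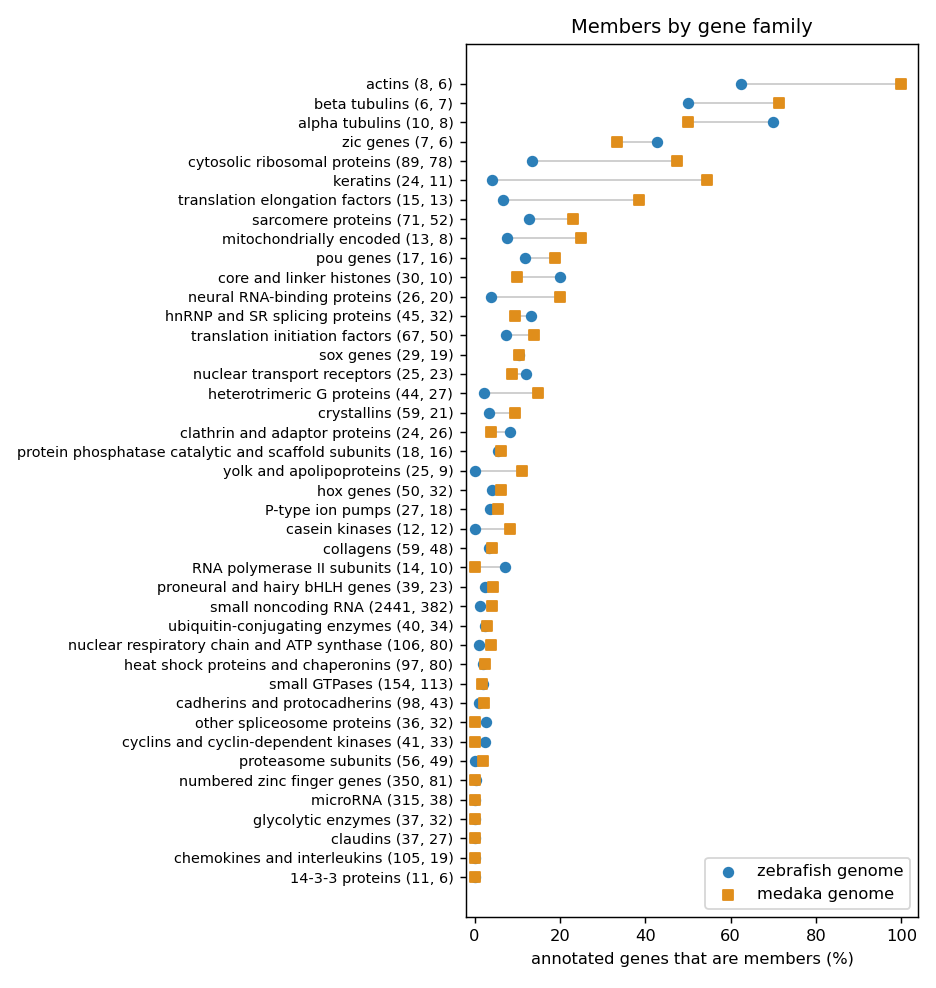
Share of annotated genes that were members (percent) for each family with at least 6 annotated genes on both genomes, on the zebrafish genome (blue circles) and the medaka genome (orange squares), with the annotated numbers on the zebrafish and medaka genome in brackets. Actins and both tubulin families lie at 50% or more on both genomes, and glycolytic enzymes, claudins, chemokines, 14-3-3 proteins and microRNAs lie at 0 on both.

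Some loci received more from the foreign species than from their own. Uncorrected for library size, this held for 25 of 133 well-covered members on the zebrafish genome and 24 of 129 on the medaka genome. Both foreign libraries lay above both native ones for 23 and 21. Records near 100 per 100, such as the unnamed mitochondrial record of the medaka genome at 114, could change sides if library size were corrected for. Muscle genes were among them on the medaka genome. mylpfa (chr8:3797631-3799246), the regulatory light chain of fast muscle myosin, read 78393 and 67505 FPKM in zebrafish on 6486 and 6816 fragments, and 0.811 and 0.781 FPKM in medaka on 11.9 and 9.59 fragments. Uncorrected for library size, zebrafish gave 62044 fragments per 100 from medaka. Zebrafish embryos read 2855 and 1982 FPKM for mylpfa on their own genome.

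The same held for skeletal actin acta1 (176006 and 147008 FPKM in zebrafish, 27.7 and 33.9 in medaka, 3574 fragments per 100), the myosin light chain mylz3 (4428 and 3464 against 1.25 and 0.892) and the tropomyosin TPM2 (1302 and 1118 against 1.59 and 1.77). Zebrafish mylz3 on its own genome read 2066 and 1319.9 FPKM. The sarcomere list, which also holds nonmuscle and smooth muscle myosins, had 12 of 52 members on the medaka genome and 9 of 71 on the zebrafish genome. Also above their native level were snap25a and grin1a, named after their values were seen. snap25a, of the synaptic vesicle fusion machinery, read 2311 and 2601 FPKM in zebrafish and 1.43 and 1.96 in medaka, and the glutamate receptor subunit grin1a read 69.4 and 96.7 against 0.0839 and 0.0617. Their levels in zebrafish on its own genome were 43.5 and 41.1 FPKM and 7.73 and 8.96 FPKM. Stage in hours is not in the labels, so whether species were matched for muscle or neural differentiation cannot be told from them.

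On the zebrafish genome such loci included a histone record and several records of like values. HIST2H3A (chr7:5783444-5784093), which encodes histone H3, a core protein of the nucleosome, read 1222 and 1238 FPKM in medaka on 161 and 135 fragments, and 0.358 and 0.409 in zebrafish. The records si:ch1073-159d7.3, si:ch1073-159d7.4, si:ch211-113a14.8, si:dkey-108k21.25 and 2 loci named zgc:173552 showed like values, between 742 and 2044 FPKM in medaka and under 2.2 in zebrafish. No role is given for these from the files. Histone genes come in near-identical copies, so which copy the reads of HIST2H3A came from is uncertain. myh11a, a smooth muscle myosin heavy chain, read 637 and 736 FPKM in medaka against 0.368 and 0.488 in zebrafish, and 8.06 and 7.34 FPKM in medaka on the medaka genome.

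Small noncoding RNA and very short records need their own reading. U1, U2 and 5S rRNA and the signal recognition particle RNA were members on one or both genomes, with 25 named small RNA members on the zebrafish genome and 15 on the medaka genome beside the 5.8S records. A further 17 members of the medaka genome were records under 200 bp with FPKM up to 23830700 on 966 fragments in zebrafish 1, at a record without a symbol. Its values in zebrafish 1 and 2 differed 10.1-fold. FPKM of such short records rest on very small effective lengths, so their levels cannot be set beside those of longer genes. Such records do enter the sums of FPKM below, and U6 and 5.8S copies enter the ranking of rises.

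In the chimeras RNA of both species was sequenced together. Chimera libraries placed 941708, 764000 and 847288 fragments on the zebrafish genome and 30983952, 27167734 and 27824199 on the medaka genome. At the medaka libraries' mean rate of 0.450%, medaka cells alone would have placed 139320, 122160 and 125112 fragments on the zebrafish genome, which is 14.8%, 16.0% and 14.8% of those seen. In the other direction zebrafish cells would have given 0.00878%, 0.00813% and 0.00880% of the medaka-genome fragments.

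The share of zebrafish-genome fragments that fell in members was 16.1%, 16.2% and 16.8% in the chimera libraries, 8.42% and 8.18% in zebrafish, and 99.6% and 99.5% in medaka, shown for comparison only. The difference between chimeras and zebrafish was 8.05 percentage points. Its direction follows from the way members were chosen, since the medaka RNA in a chimera falls on members by that rule, so it is a description and no test is given. Taken over summed FPKM the share was 52.3%, 52.9% and 57.7% in chimeras against 13.7% and 13.6% in zebrafish, a difference of 40.6 percentage points. Without the members at or near 5.8S rRNA the difference was 5.29 percentage points. For the medaka genome the members' share was 18.0%, 17.9% and 18.0% in chimeras against 18.8% and 18.6% in medaka, a difference of -0.72 percentage points (exact two-sided permutation test, 3 against 2 libraries, p = 0.1, the smallest this design allows). The sign of that difference changes when the share is taken over summed FPKM (0.257 percentage points).

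Gene by gene, many members were higher in chimeras than in zebrafish on the zebrafish genome. limma (log2(FPKM + 1), Benjamini-Hochberg adjusted over all tested genes) called 152 of 324 tested members higher and 44 lower. Over all 17397 tested genes the same test called 9.7% higher and 34.1% lower. The median difference was 0.46 (log2) over the members and -0.28 over all genes. Among the 133 well-covered members 94 were higher and 14 lower. Chimeras also hold medaka RNA, which crosses to the same genes, so the count is no independent sign of a change in zebrafish cells. Rises of single members on this genome share that limit, so their differences are given below without a p-value. With the fit left without zebrafish 1 or zebrafish 2 the members higher were 94 and 100 and those lower 17 and 20, beside 3.58% and 4.57% of all genes higher and 20.8% and 21.5% lower. Under quantile normalization that median was 0.30 over all genes, and the test called 59.3% of members and 32.8% of all genes higher.

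At the medaka libraries' rate, the expected medaka signal came to over 50% of the chimera value at most well-covered members. For each chimera, the FPKM of a member in the medaka libraries was scaled to the FPKM expected if only medaka cells had contributed. The scale was the number of fragments per unit of FPKM in each library on both genomes. Over the 133 well-covered members the expected value had a median of 71.3%, 65.6% and 69.9% of the observed FPKM in chimeras 1, 2 and 3. It reached at least 50% for 85, 91 and 87 of them. For actb1 it was 96.3% of the observed mean, for HIST2H3A 93.9%, for eif1b 87.8% and for meis2a 86.7%. At the other end stood tuba1c at 2.50%, HNRNPUL1 at 4.63%, hsp90ab1 at 6.55%, sox11a at 7.31% and elavl3 at 9.49%. The expected value also ran above the observed one at many members. Its upper quartile over the well-covered members was 110.2%, 95.2% and 117% in chimeras 1, 2 and 3, and its highest value 1294%, 2116% and 214%. Summed over all members, the expected FPKM came to 181%, 177% and 149% of the observed FPKM. Fragment totals gave another picture. Members held 151794, 123469 and 142174 fragments in chimeras 1, 2 and 3, above the 139320, 122160 and 125112 expected from medaka over all genes. The leading records si:dkey-153m14.1 and zgc:158463 stood at 163% and 180.1%, and wu:fi09b08 at up to 219%. The rate thus predicted more than was seen at these loci, which limits how the shares above and the subtraction can be read.

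Taking the expected FPKM off each chimera value, a step added after seeing the data, left 35 of 305 tested members higher and 103 lower. That is 11.5% and 33.8% of the members, against 9.16% and 34.1% of all genes in the same fit, or 43.3% in either direction. Of the 152 members called higher at first, 35 stayed higher and 36 turned to lower. Of these 36, 15 lay at or near a 5.8S rRNA record. Negative values left by the subtraction were set to 0. Where the expected value exceeded the observed one in every chimera, the difference restates the native level and measures no fall. The counts of lower members include such cases. The subtraction uses the medaka libraries that also chose the members, and error in those values passes into it.

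**Figure D5:**
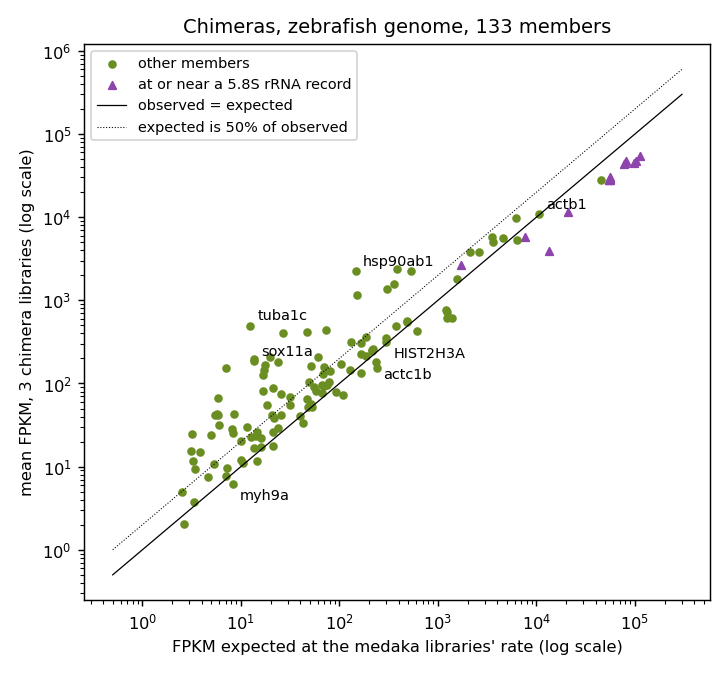
Mean FPKM of the 133 well-covered members in the 3 chimera libraries on the zebrafish genome (vertical, log scale) against the FPKM expected from medaka cells alone (horizontal, log scale, mean over the 3 chimeras). Triangles are members at or near a 5.8S rRNA record, the solid line is equality and the dotted line marks where the expected value is 50% of the observed one; actb1 lies on the solid line, and tuba1c and hsp90ab1 lie far above it.

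The calls of single families before and after the subtraction are given as a description, since it uses the medaka values that chose the members. Over all genes 9.7% were called higher and 34.1% lower before it, and 9.16% and 34.1% after it. The cytoplasmic actin actb1 (2188 and 2235 FPKM in zebrafish, 10458, 11638 and 10637 in chimeras) was higher in chimeras, by 2.15 ± 0.07 (SE) on the log2 scale. So was actb2 (2663 and 2623, 5501, 5665 and 5503), by 0.92 ± 0.07 (SE). The muscle actins actc1b (5266 and 3651, 172, 176 and 189), acta1a and acta1b were lower, actc1b with a difference of -4.76 ± 0.20 (SE) (limma adjusted p = 8.50e-05). With the expected medaka signal taken off, none of the 5 was higher and 4 were lower. The expected value of actc1b was 130.4% of the observed one.

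Of the 12 ribosomal protein members 3 were higher, among them rpl38 (log2 difference 1.71 ± 0.13 (SE)) and rpsa (1.17 ± 0.14 (SE)). In rpl8, also well covered, the groups differed by -0.06 ± 0.15 (SE) (limma adjusted p = 0.766). After the subtraction none of the 12 was higher and 1 was lower, with a median of -0.12. eef1a1l1 was higher by 0.81 ± 0.10 (SE), but lower by 1.35 under quantile normalization and by 0.65 after the subtraction.

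All 6 hnRNP and SR members were called higher, beside 152 of 324 members and 9.7% of all genes. Of the 6, hnrnph1l, hnrnpub, hnrnpaba and HNRNPUL1 stayed higher after the subtraction, beside 11.5% of members and 9.16% of all genes. hnrnph1, at 6.40 and 6.71 FPKM in zebrafish and 52.2, 61.9 and 55.3 in chimeras, did not. The expected value was 0.132% of the observed one for hnrnpaba, 1.16% for hnrnpub and 4.63% for HNRNPUL1. The subtraction could thus hardly change those calls, and hnrnpaba and hnrnpub were not well covered. For hnrnph1l it was 50.8%. Of the 5 tubulins called higher, 4 stayed so: tubb4b (883 and 822 in zebrafish, 1504, 1707 and 1503 in chimeras, 0.73 ± 0.10 (SE)), tubb2b, tuba1b and tuba1c. For these 4 the expected values were 22.8%, 0.295%, 11.3% and 2.50% of the observed ones, and tubb2b was not well covered. tuba8l3 and tuba8l2 were lower both before and after the subtraction. Regulators that stayed higher include the eye field factor six3a (8.57 and 7.79 in zebrafish, 42.9, 41.2 and 39.4 in chimeras, 9.82 and 16.7 in medaka) and pax2a, of the optic stalk and midbrain border (9.52 and 10.7, 22.3, 22.8 and 26.3, 10.5 and 11.3). In six3a all chimeras lay above both zebrafish libraries, as they did for 19.8% of all tested genes. The expected value of six3a was 7.74% of the observed one. six3a and pax2a were not well covered, so their expected values rest on few medaka fragments, and both were chosen after their values were seen.

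The 5 steepest rises by the naming rule were those of U6, 3 copies of 5.8S rRNA and the histone record HIST2H3A, and the 5 steepest falls those of 4 muscle genes and 1 collagen. Since chimeras hold medaka RNA, the choice of members favours such rises, and they are given as a description. U6 was higher in chimeras by 8.46 ± 0.68 (SE) and HIST2H3A by 7.75 ± 0.12 (SE) (log2). HIST2H3A read 0.358 and 0.409 FPKM in zebrafish and 295, 364 and 292 in chimeras. U6, a small noncoding RNA, was not well covered. It read 5.38 and 29.9 FPKM in zebrafish and 6689, 5512 and 4448 in chimeras. Its chimera values were 58.4% expected from medaka, and it kept the call after the subtraction. The 3 steepest 5.8S copies rose by between 7.68 and 7.75, and they turned to lower after the subtraction. The subtraction sets negative values to 0, so this turn is not a measured fall. Chimera values of HIST2H3A were 93.9% expected from medaka, and its difference lost the call after the subtraction. The steepest falls were those of the creatine kinase ckmb (2041 and 1329 FPKM in zebrafish, 0, 0 and 0 in chimeras), mylpfa (2855 and 1982, 0.984, 1.90 and 0.555), mylz3 (2066 and 1319.9, 1.81, 0 and 1.28), the collagen col1a1a (438 and 534, 2.18, 1.49 and 1.52) and actn3a (133 and 105, 0, 0.454 and 0). In mylpfa the log2 difference was -10.29 ± 0.32 (SE) (limma adjusted p = 6.24e-05). In bulk embryos fewer cells of a type and less RNA per cell cannot be told apart.

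Markers of embryonic tissues were read beside these values. On the zebrafish genome the muscle marker myod1, the blood marker gata1a and the lens marker cryaa were listed at 0 in all 3 chimeras, whereas the retinal genes rx1, rx2 and crx read between 19.8 and 52.0 FPKM in chimeras and between 1.35 and 9.77 in zebrafish. None of these 6 was a member, and all 6 were listed at 0 in both medaka libraries. A second crx record and gap43 were listed at 0 in all libraries. The notochord markers col2a1a (261 and 308 FPKM in zebrafish, 2.41, 2.32 and 2.86 in chimeras) and shha (10.08 and 10.06, 0.744, 1.27 and 0.978) read lower in chimeras. The epidermal markers krt4 and cyt1 lacked a valid value in at least 1 zebrafish library. elavl3, a neuronal RNA-binding protein, was the one marker with over 10 fragments in both medaka libraries (87.0 and 74.8 FPKM), against 133 and 194 in zebrafish and 215, 212 and 193 in chimeras. Their part in the members' differences was not tested.

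On the medaka genome the chimeras differed little from medaka at the members. limma called 16 of 355 tested members higher and 9 lower, beside 2.7% higher and 3.13% lower of all 14644 genes. The shares over all tested members, 4.51% and 2.54%, lie near that background. Among the 115 well-covered members that were tested, 10 were higher and 4 lower, and the share higher lay above the 2.7% over all genes. Counts moved with single libraries: 3 higher and 1 lower without medaka 1, 5 and 0 without medaka 2, 10 and 10 without chimera 1, 25 and 28 without chimera 2, and 4 and 1 without chimera 3. Zebrafish cells would by rate have given a median of 0.0888%, 0.0772% and 0.0850% of the observed FPKM of the 129 well-covered members. Taking that off left 16 higher and 11 lower, beside 2.7% and 3.14% of all genes.

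Among members called higher on the medaka genome and named by the rule, 2 lens crystallins rose most. crybb1 read 31.9 and 38.8 FPKM in medaka and 72.9, 93.5 and 74.8 in chimeras (1.12 ± 0.12 (SE), limma adjusted p = 0.00813), and cryba1l2 19.5 and 22.6 and 43.0, 49.3 and 43.4 (1.03 ± 0.08 (SE), adjusted p = 0.00275). In both genes all 3 chimeras lay above both medaka libraries. ckma and ascl1a followed, at 0.70 ± 0.05 (SE) and 0.61 ± 0.12 (SE), then elavl3 and krt97, at 0.59 ± 0.08 (SE) and 0.59 ± 0.09 (SE). Among members with a symbol that were called lower, the steepest falls were those of acta1 (27.7 and 33.9 in medaka, 21.9, 22.3 and 21.7 in chimeras, -0.51 ± 0.09 (SE), limma adjusted p = 0.0351), krt4, scinlb, acta1a and pabpc1a, by 0.31 to 0.51. The call of crybb1 was lost without medaka 1 (0.96), that of elavl3 without medaka 1, medaka 2 or chimera 3 (0.57, 0.61 and 0.56), and that of acta1 without medaka 2 (-0.35) or any chimera.

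A few medaka-genome members lay far above that median, among them mylpfa. At the rate of whole zebrafish the expected signal was 1135% of the observed mean, and the chimeras read 0.767, 0.502 and 0.862 FPKM, beside 0.811 and 0.781 in medaka. On the zebrafish genome the same chimeras read 0.984, 1.90 and 0.555 FPKM for mylpfa, against 2855 and 1982 in zebrafish. The rate assumes the zebrafish cells of a chimera carry the RNA of a whole zebrafish embryo. For acta1 the expected value was 81.4% and for snap25a 10.9% of the observed one.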

How the data were processed

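Poly(A) RNA of 7 embryo libraries was measured, each on both genomes. The deposited FPKM tables were made by the authors, and per the submitters' processing notes HISAT2, Cufflinks 2.2.1 and the build danRer10 took part. No HISAT2 version or medaka build is given in those sources. Values with a failed status were treated as missing, and 119 zebrafish and 2 medaka gene IDs with several loci were summed. Fragments were derived from each FPKM and its upper confidence limit; floors and limits cover counting error only. Coordinates are printed as deposited, first base 1. Groups came from the labels. Chimera and native libraries were compared with limma 3.58.1 (R 4.3.3) on log2(FPKM + 1) after scaling libraries by their median ratio, with trend and robust options, over genes with a mean FPKM of at least 1 and a Benjamini-Hochberg threshold of 0.05. The members' share was compared by exact two-sided permutation on the medaka genome; on the zebrafish genome it is given without a test, since the choice of members fixes its direction. The limma fit was tested on simulated data. Python 3.11.15, numpy 2.4.6, pandas 2.3.3, scipy 1.17.1 and matplotlib 3.10.9 served for the rest. The members, the 45 gene families and the tests were chosen with earlier results of these data known. Genes were named by rule: the 12 members with the most foreign fragments, up to 3 per family, the 10 leading symbols shared by both genomes, the 5 steepest rises and falls, and 2 genes on each side of the threshold; some genes that the rule names are not reported here, and others were named after their values were seen. Alternatives were other thresholds, pseudocounts, filters and scalings, a fit of all 3 groups and leaving out each library; the subtraction of expected cross-mapping and the share without 5.8S records were added after seeing the data.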

Additional observations from a re-analysis of the deposited data

How the results depend on the processing

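No paired analysis was possible because the replicate numbers were given in accession order and pair no libraries. The member count of the zebrafish genome was 213 at 10 FPKM, 190 with at least 3 and 133 with at least 10 fragments in each foreign library, and 399 to 903 with 1 medaka library left out; on the medaka genome these were 229, 200, 129 and 685 to 965. Over leaving out single libraries, limma's counts of members ranged from 94 to 147 higher and 17 to 42 lower on the zebrafish genome, and from 3 to 25 higher and 0 to 28 lower on the medaka genome. A lone native library left by this is assumed to vary like the other group. On the medaka genome no filter gave 10 higher, a fit of all 3 groups 3 higher and 1 lower, and no rescaling 3 lower, and the members' share of summed FPKM differed by 0.257 percentage points; on the zebrafish genome that share differed by 40.6 in place of 8.05 percentage points. With cross-mapping subtracted, 35 members were higher and 103 lower on the zebrafish genome. There the log2 difference reversed for rpl38 (-0.17), rpsa (-0.18), eef1a1l1 (-0.65), actb1 (-3.17), actb2 (-1.51), amd1 (-0.87), slc25a5 (-1.04), meis2a (-1.40), si:dkey-153m14.1 (-9.67), zgc:158463 (-9.34), 3 records of wu:fi09b08 (-10.48, -10.02 and -9.95) and 7 of 5.8S rRNA (-7.00, -7.03, -7.05, -7.00, -6.96, -5.52 and -7.05). Quantile normalization reversed eef1a1l1 (-1.35). The subtraction removes the expected signal by construction and sets negative values to 0. Where the expected value exceeded the observed one in every chimera, the reversed difference restates the native level and measures no fall. For the other changes the cause was not tested. Over the 40 named genes with a test, 448 alternative values kept direction and call, 50 kept direction but lost the call and 21 reversed. Foreign depth limits all member values: most members hold fewer than 10 fragments in a foreign library, and a gene with none may still cross at a rate below this depth.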
